A study of Mus musculus with 50 samples.

Results

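Described here are 9 genes that carry amino acids across the plasma membrane or make and use glutamine and glutamate: Slc7a5, Slc3a2, Slc1a5, Slc38a1, Slc38a2, Slc7a1, Glul, Got1 and Got2. They were chosen by gene name from the 37701 genes of the deposited table, and all 9 were among the 16733 genes that were tested, those with an RPKM (reads per kilobase of gene, scaled to library size) of 0.5 or more on average. The tumors arose in mammary glands of female p53R270H/+WAPCre mice, in which Cre recombinase driven by the promoter of the milk protein gene Wap switches on a heterozygous p53 point mutation, so that the control tumors carry this mutation too. Treatment started at an age of 8 weeks and consisted of vehicle, insulin, IGF1 or an insulin analogue (glargine or X10) given under the skin every second day. Each tumor analysed had grown to 1 cm3, and its RNA reflects tissue taken 24 h after the last dose. Each group held 10 tumors, 50 in all, and the vehicle tumors bear the title "Untreated". The study had picked tumors with a histology like that of epithelial to mesenchymal transition and a latency near the median of their group, so the tumors do not stand for all those that formed.

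Growing cells take up large neutral amino acids through exchangers that release glutamine, so that uptake of glutamine, its synthesis and the exchangers are coupled. Slc7a5 encodes the light chain and Slc3a2 the heavy chain of the exchanger LAT1, which supplies leucine, an activator of the growth regulator mTORC1. Glutamine gives nitrogen to nucleotides and, by way of glutamate and the aspartate aminotransferases, serves aspartate synthesis and the citric acid cycle. Insulin and IGF1 bind receptors that signal to mTORC1.

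The libraries held 26.6 to 51.9 M reads (median 40.9 M), with group medians from 35.4 M in X10 to 44.0 M in vehicle tumors. The tumors differed widely in the tissue they held: the summed RPKM of 10 epithelial markers ran from 12.9 to 10427, and that of 8 markers of fast skeletal muscle from 6.47 to 6515. In such bulk samples, fewer cells of a type and less RNA per cell cannot be told apart.

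None of the 9 genes passed the test for a difference between treatments after adjustment over all tested genes. With limma (two-sided, Benjamini-Hochberg over 16733 genes), 0 of 9 were called in each of 8 comparisons and in the F-test over the 5 groups. Of the 72 single tests, 4 had an unadjusted p under 0.05: Slc3a2 in X10 against vehicle, Glul in glargine against vehicle, Slc38a1 in IGF1 against vehicle and Got2 in X10 against insulin. Of all tested genes, 3.96% (glargine against insulin) to 11.3% (X10 against insulin) had such a p in the 8 comparisons. The count of 4 is therefore no result about these genes. A voom test on recovered reads called 0 as well and gave an unadjusted p under 0.05 for the same 4. Few genes of any kind were called. Against vehicle, 0.0657% of all tested genes were called with X10 and 0.00598% with IGF1, but 0% with insulin and 0% with glargine. For the 20 X10 and IGF1 tumors against the other 30, 0.155% were called. Set against insulin, X10 had 0.102% called, IGF1 0.00598% and glargine 0%. The F-test called 0.102%. At such shares, 0 of 9 is no result about these genes in particular. Their lowest adjusted p was 0.295 in the 8 comparisons, for Got2 in X10 against insulin, and 0.4661 in the F-test, for Slc3a2.

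**Figure D1:**
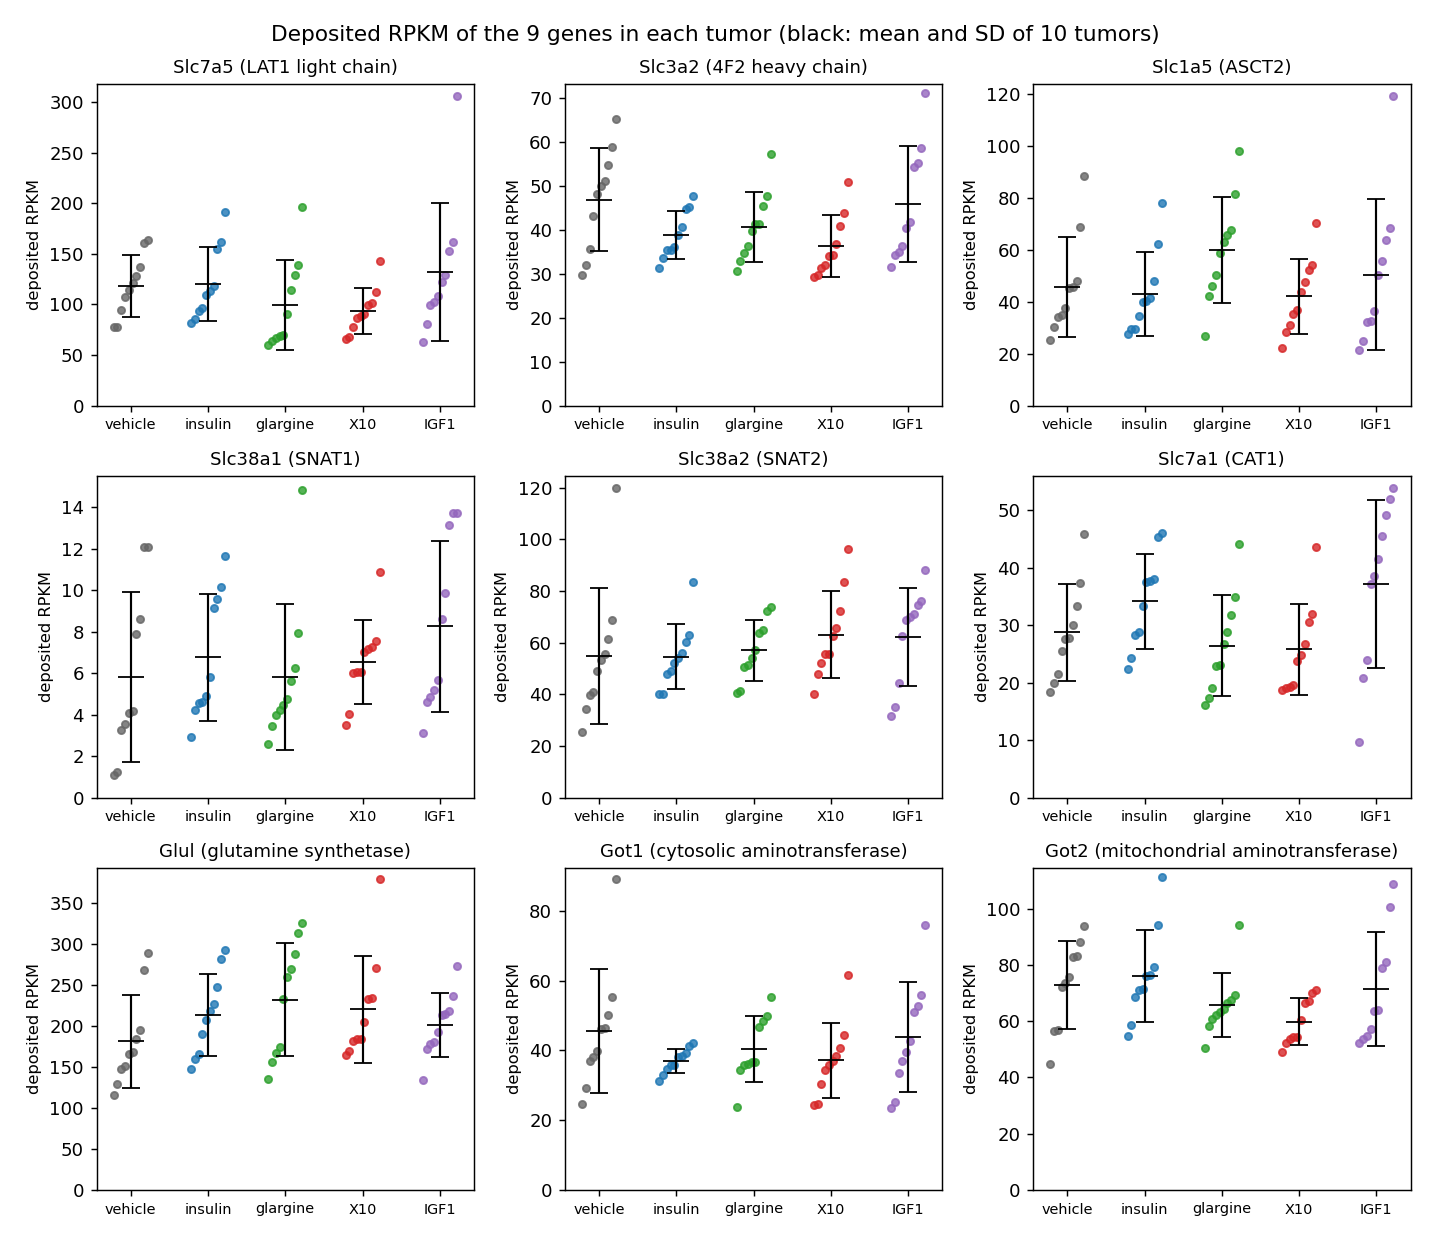
Deposited RPKM (y axis, linear from 0) of each gene in each of the 50 tumors by treatment group (x axis), with the mean and SD of 10 tumors in black. The groups overlap in each panel, and single tumors stand apart, such as the IGF1 tumor with a Slc7a5 RPKM of 306.

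Levels of different genes can be compared only per length, and the length behind each RPKM, read from the steps between low values, was often not that of the main transcript. It was 618 bases for Slc7a5, 853 for Slc1a5 and 550 for Glul, each the length of a transcript with a retained intron in GENCODE M21, whereas the longest coding transcripts have 3517, 2764 and 2792 bases. For Slc7a1 it was 1792 bases, that of a shorter coding transcript, against 7179 for the longest. Slc38a1 had the 7266 bases of its longest coding transcript, and the lengths of Slc38a2 (4626 bases) and Got1 (2093) were close to theirs. Slc3a2 (5385 against 2813 bases) and Got2 (3309 against 2530 bases) had been given more than the longest coding transcript. Among 13508 tested genes with a coding transcript, the longest was over 2 times the length used in 28.4%. A gene's length is common to all tumors and cancels in a ratio of RPKM, but on log2(RPKM + 0.5) it sets how far low values are drawn together.

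The order of the 9 genes depended on that length. As deposited, the mean RPKM over 50 tumors was highest for Glul (209 ± 57.4, SD), followed by Slc7a5 (112.7 ± 43.9), Got2 (69.3 ± 15.5), Slc38a2 (58.4 ± 17.7) and Slc1a5 (48.3 ± 20.7). Slc3a2 (41.7 ± 9.97), Got1 (40.8 ± 12.5) and Slc7a1 (30.5 ± 10.5) came next, and Slc38a1 (6.64 ± 3.43) was lowest. Neighbours such as Slc1a5, Slc3a2 and Got1 differed by less than their SD. Rescaled to the longest coding transcript, Got2 was highest (90.6 ± 20.3), followed by Slc3a2 (79.8 ± 19.1), Slc38a2 (57.9 ± 17.5), Got1 (41.5 ± 12.7) and Glul (41.3 ± 11.3). Slc7a5 (19.8 ± 7.72) and Slc1a5 (14.9 ± 6.40) then differed by less than their SD, as did Slc7a1 (7.61 ± 2.63) and Slc38a1 (6.64 ± 3.43). Slc38a1 was lowest on both scales. The reads behind a value ran from 339 in the tumor with least Slc38a1 to 28421 in that with most Slc38a2.

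**Figure D2:**
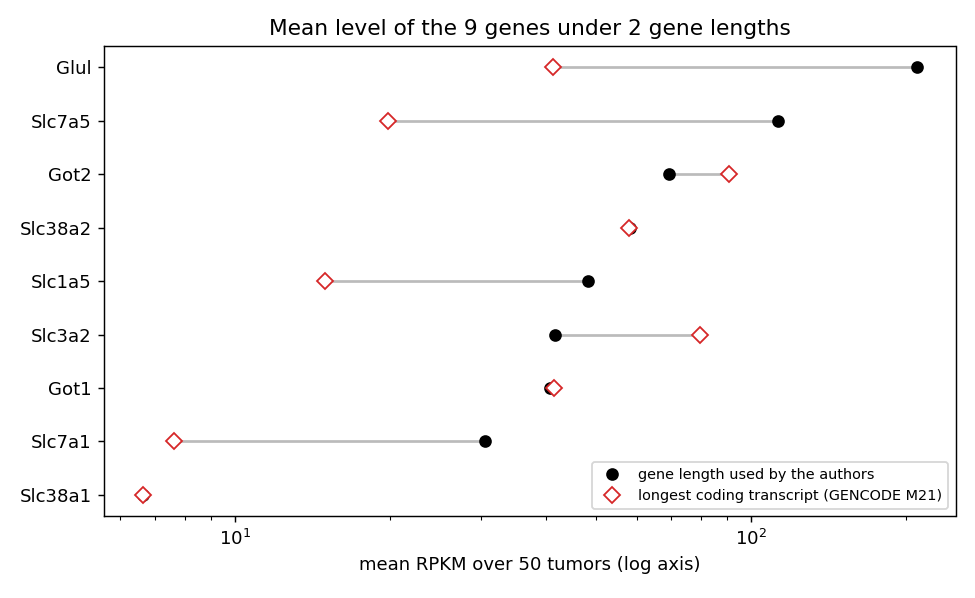
Mean RPKM over 50 tumors (x axis, log scale) of each gene (y axis) with the gene length used by the authors (black circles) and with the longest coding transcript (open red diamonds). Glul moves from 209 to 41.3 and Slc7a5 from 112.7 to 19.8, whereas Slc3a2 moves from 41.7 up to 79.8.

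In each gene all 5 groups overlapped, and in the order of group means each of the 4 neighbouring pairs differed by less than the smaller of their SDs, with a largest gap of 0.708 SD (Got2). The share of all tested genes with such overlap was not computed, so this is a description and no result about these genes. The highest group mean was 1.16 times the lowest for Slc38a2 and 1.44 times for Slc7a1, the ends of the range over the 9 genes. Single tumors differed far more, from 2.44-fold between the lowest and highest tumor for Slc3a2 to 13.7-fold for Slc38a1. From high to low, the order of means was vehicle > IGF1 > glargine > insulin > X10 for Slc3a2 and glargine > IGF1 > vehicle > insulin > X10 for Slc1a5. It was IGF1 > insulin > X10 > glargine > vehicle for Slc38a1, X10 > IGF1 > glargine > vehicle > insulin for Slc38a2 and IGF1 > insulin > vehicle > glargine > X10 for Slc7a1. For Glul it was glargine > X10 > insulin > IGF1 > vehicle, for Got1 vehicle > IGF1 > glargine > X10 > insulin and for Got2 insulin > vehicle > IGF1 > glargine > X10.

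Slc7a5, the light chain that carries the amino acids (ENSMUSG00000040010, chr8:121881150-121907694, minus strand, build GRCm38), is described first. Its RPKM ran from 77.3 to 164 (median 117.5) in vehicle tumors, from 81.6 to 192 (median 110.8) in insulin tumors and from 60.1 to 196 (median 80.1) in glargine tumors. It ran from 65.6 to 143.04 (median 89.5) in X10 tumors and from 62.4 to 306 (median 114.97) in IGF1 tumors. The order of means was IGF1 > insulin > vehicle > glargine > X10. X10 tumors (93.3 ± 22.8, SD, n = 10) against vehicle tumors (118.01 ± 30.5) gave a log2 fold change of -0.33 ± 0.211 (SE), with a 95% interval from -0.75 to 0.09 (limma adjusted p = 0.575), and 9 of 10 X10 tumors lay below the vehicle mean. The median library size was lowest in X10, and with library size as a covariate this fold change of Slc7a5 was -0.61 ± 0.209 on the log2 scale (limma unadjusted p = 0.00569), with an adjusted p of 0.460. With quantile normalization it was -0.26 ± 0.210 (limma unadjusted p = 0.221). The high mean of the IGF1 tumors (132.2 ± 67.9) rested on the tumor titled IGF1_158: the log2 fold change of Slc7a5 against vehicle was 0.08 with that tumor and -0.07 without it. That tumor also had the highest Slc3a2 and Slc1a5 of all 50, and the fold change of Slc1a5 in IGF1 against vehicle went from 0.05 to -0.10 on the log2 scale without it.

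Slc3a2, the heavy chain that brings LAT1 and related light chains to the membrane (ENSMUSG00000010095, chr19:8706882-8723369, minus strand), had the narrowest range over the 50 tumors among the 9 genes, 2.44-fold. Its RPKM ran from 29.6 to 65.1 (median 49.0) in vehicle tumors, from 31.3 to 47.5 (median 37.4) in insulin tumors and from 30.6 to 57.2 (median 40.4) in glargine tumors. It ran from 29.2 to 50.9 (median 34.1) in X10 tumors and from 31.6 to 71.1 (median 41.02) in IGF1 tumors. Of the 10 X10 tumors, 9 lay below the vehicle mean, as did 9 of 10 insulin tumors. X10 (36.2 ± 6.99) against vehicle (46.8 ± 11.7) gave a log2 fold change of -0.34 ± 0.138 (SE), with an interval from -0.62 to -0.07, an unadjusted p of 0.0164 and an adjusted p of 0.352 (limma). In this comparison 11% of all tested genes had an unadjusted p under 0.05, 8.25% with a lower value in X10. None of 27 relations with technical measures passed the threshold over the 50 tumors. That of Slc3a2 with the share of RPKM in processed pseudogenes had r = 0.405 (permutation p = 0.00335, adjusted p = 0.0566) and rho = 0.413 (permutation p = 0.00302, adjusted p = 0.0815). For this relation r was 0.382 on values centred within groups (adjusted p = 0.113) and 0.424 without the 2 tumors farthest from the median (adjusted p = 0.0337). With that share as a covariate, the fold change of Slc3a2 was -0.23 ± 0.136 on the log2 scale (limma unadjusted p = 0.102).

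Which chain of LAT1 seems the more abundant depends on the gene length. The log2 ratio of Slc3a2 to Slc7a5 was -1.38 ± 0.487 (SD, n = 50) as deposited and above 0 in 0 of 50 tumors, and 2.06 with the longest coding transcripts and above 0 in 50 of 50. By group, the deposited ratio was between -1.59 ± 0.354 in insulin and -1.20 ± 0.548 in glargine tumors (SD, n = 10). The gap between these 2 groups was larger than the SD among insulin tumors and smaller than that among glargine tumors, and it was not tested.

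Slc1a5 encodes ASCT2, a sodium-dependent exchanger that takes up glutamine (ENSMUSG00000001918, chr7:16781340-16798274, plus strand). Its RPKM ran from 25.1 to 88.5 (median 41.5) in vehicle tumors, from 27.6 to 78.1 (median 40.1) in insulin tumors and from 26.8 to 98.4 (median 61.0) in glargine tumors. It ran from 22.2 to 70.5 (median 40.2) in X10 tumors and from 21.6 to 119 (median 43.4) in IGF1 tumors. Glargine tumors had the highest mean (60.1 ± 20.4), and 8 of 10 lay above the vehicle mean (45.9 ± 19.3). The log2 fold change of glargine was 0.40 ± 0.247 (SE) against vehicle (limma adjusted p = 0.814) and 0.47 ± 0.247 (SE) against insulin (adjusted p = 0.990). With the epithelial, adipocyte and muscle scores as covariates, the fold change of Slc1a5 against vehicle was 0.19 ± 0.237 on the log2 scale (limma unadjusted p = 0.422). The summed adipocyte markers had a median RPKM of 188.8 in glargine and 52.7 in vehicle tumors. The IGF1 group held both the lowest and the highest tumor of all 50. The coefficient of variation of Slc1a5 was 42.9%, and 85.6% of the 3723 genes within 2-fold of its mean had a lower one.

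Slc38a1 and Slc38a2 encode the sodium-coupled carriers SNAT1 and SNAT2, which load glutamine, alanine and other small neutral amino acids. They lie 44.5 kb apart (Slc38a1: ENSMUSG00000023169, chr15:96571418-96642913, minus strand; Slc38a2: ENSMUSG00000022462, chr15:96687392-96699730, minus strand). The RPKM of Slc38a1 ran from 1.08 to 12.1 (median 4.12) in vehicle tumors, from 2.93 to 11.7 (median 5.36) in insulin tumors and from 2.59 to 14.8 (median 4.61) in glargine tumors. It ran from 3.50 to 10.9 (median 6.55) in X10 tumors and from 3.12 to 13.7 (median 7.15) in IGF1 tumors. The vehicle group held the tumor with the least Slc38a1 and the glargine group the tumor with the most. IGF1 (8.26 ± 4.13) against vehicle (5.80 ± 4.10) gave a log2 fold change of 0.64 ± 0.316 (SE), with an interval from 0.01 to 1.28, an unadjusted p of 0.0475 and an adjusted p of 0.558 (limma). In this comparison 8.84% of all genes had an unadjusted p under 0.05, 4.49% with a higher value in IGF1. Of the IGF1 tumors, 5 of 10 lay above the vehicle mean. With the epithelial, adipocyte and muscle scores as covariates the fold change of Slc38a1 was 0.22 ± 0.324 on the log2 scale (unadjusted p = 0.508, limma). The summed RPKM of the epithelial markers had a median of 416 in vehicle tumors (23.3 to 10427) and of 146 in IGF1 tumors (12.9 to 789).

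The RPKM of Slc38a2 ran from 25.4 to 119.8 (median 51.2) in vehicle tumors, from 40.0 to 83.6 (median 53.1) in insulin tumors and from 40.7 to 73.9 (median 55.7) in glargine tumors. It ran from 40.2 to 96.1 (median 59.1) in X10 tumors and from 31.5 to 88.1 (median 69.5) in IGF1 tumors. The vehicle tumors reached below and above those of each other group. The 20 X10 and IGF1 tumors (mean 62.7) against the other 30 (mean 55.5) gave a log2 fold change of 0.18 ± 0.124 (SE) (limma adjusted p = 0.685), and 14 of the 20 lay above the mean of the 30. With the marker scores as covariates the fold change of Slc38a2 was 0.12 ± 0.125 on the log2 scale (limma unadjusted p = 0.349). The log2 ratio of Slc38a2 to Slc38a1 was 3.28 ± 0.806 (SD, n = 50) as deposited and 3.27 with the longest coding transcripts, and above 0 in 50 of 50 tumors under both lengths.

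Slc7a1 encodes CAT1, a carrier of arginine and lysine (ENSMUSG00000041313, chr5:148327410-148399904, minus strand). Its RPKM ran from 18.5 to 46.0 (median 27.7) in vehicle tumors, from 22.4 to 46.0 (median 35.4) in insulin tumors and from 16.1 to 44.1 (median 24.9) in glargine tumors. It ran from 18.8 to 43.7 (median 24.2) in X10 tumors and from 9.63 to 53.8 (median 40.1) in IGF1 tumors. The lowest and the highest of all 50 tumors were both IGF1 tumors. X10 (25.8 ± 7.92) against insulin (34.2 ± 8.20) gave a log2 fold change of -0.41 ± 0.217 (SE), with an interval from -0.85 to 0.03 (limma adjusted p = 0.480), and 9 of 10 X10 tumors lay below the insulin mean.

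Glul encodes glutamine synthetase, which makes glutamine from glutamate and ammonia (ENSMUSG00000026473, chr1:153899944-153909723, plus strand). Its RPKM ran from 115.1 to 288 (median 167) in vehicle tumors, from 147.1 to 292 (median 213) in insulin tumors and from 135.2 to 325 (median 246) in glargine tumors. It ran from 164 to 379 (median 194.4) in X10 tumors and from 133 to 273 (median 203) in IGF1 tumors. The vehicle group had the lowest mean (181 ± 56.6) and the glargine group the highest (232 ± 69.3). Glargine against vehicle gave a log2 fold change of 0.35 ± 0.168 (SE), with an interval from 0.01 to 0.69, an unadjusted p of 0.0417 and an adjusted p of 0.789 (limma). In this comparison 6.23% of all genes had an unadjusted p under 0.05, 3.31% with a higher value in glargine. Markers of adipocytes were higher in the glargine group too, and their part in the change of Glul was not tested by itself: the summed RPKM of 7 of them had a median of 188.8 in glargine tumors (20.9 to 527) and of 52.7 in vehicle tumors (18.9 to 252). With the epithelial, adipocyte and muscle scores as covariates the fold change of Glul was 0.18 ± 0.145 on the log2 scale (unadjusted p = 0.210, limma).

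A processed pseudogene of Glul, Glns-ps1 (chr11:19720355-19721472, plus strand, GRCm38), is listed as a gene of its own. Over 1123 aligned bases it was identical to the coding sequence of Glul at 96.8%, and the longest run without a difference had 140 bases, beside reads of about 100 bases. The stretch that holds this run, coding bases 950 to 1119 of Glul in GENCODE M21, is shown because a read from inside the run matches both genes, and capitals mark the bases that differ.
Glul: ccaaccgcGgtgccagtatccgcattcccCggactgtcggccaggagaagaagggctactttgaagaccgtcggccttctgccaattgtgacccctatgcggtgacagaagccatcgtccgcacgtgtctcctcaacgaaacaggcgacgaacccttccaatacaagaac
Glns-ps1: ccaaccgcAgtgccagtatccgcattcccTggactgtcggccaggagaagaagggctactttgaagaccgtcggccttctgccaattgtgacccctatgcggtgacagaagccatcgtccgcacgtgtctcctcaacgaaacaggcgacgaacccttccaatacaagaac
Glns-ps1 had a mean RPKM of 7.56 and held a median of 6.73% of the reads of both. Of all tested genes it was the most like Glul over tumors (r = 0.833). How the reads divide between the copies was not tested.

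Got1 and Got2 encode the cytosolic and the mitochondrial aspartate aminotransferase, which move amino groups between glutamate and aspartate and serve the malate-aspartate shuttle. The RPKM of Got1 (ENSMUSG00000025190, chr19:43499752-43524605, minus strand) ran from 24.5 to 89.1 (median 43.0) in vehicle tumors, from 31.1 to 42.3 (median 36.9) in insulin tumors and from 23.7 to 55.4 (median 36.7) in glargine tumors. It ran from 24.4 to 61.6 (median 36.4) in X10 tumors and from 23.6 to 76.0 (median 41.2) in IGF1 tumors. The SD of Got1 was 3.53 in insulin tumors and between 9.44 and 17.9 in the other 4 groups, a difference that was not tested. Insulin (36.97 ± 3.53) against vehicle (45.6 ± 17.9) gave a log2 fold change of -0.22 ± 0.179 (SE) (limma adjusted p = 0.674), and 10 of 10 insulin tumors lay below the vehicle mean. This rested in part on the tumor titled Untreated_161: without that tumor the vehicle mean was 40.7 ± 9.90 (SD, n = 9), 8 of 10 insulin tumors lay below this mean, and the fold change of Got1 was -0.10 ± 0.170 on the log2 scale (limma unadjusted p = 0.546).

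The RPKM of Got2 (ENSMUSG00000031672, chr8:95864134-95888547, minus strand) ran from 44.8 to 94.0 (median 74.7) in vehicle tumors, from 54.9 to 111.3 (median 73.7) in insulin tumors and from 50.4 to 94.3 (median 63.9) in glargine tumors. It ran from 48.9 to 71.3 (median 57.4) in X10 tumors and from 52.3 to 109 (median 63.9) in IGF1 tumors. The X10 group was the narrowest, and all 10 of its tumors lay below the insulin mean and below the vehicle mean. Of all tested genes, 61.4% were lower in X10 than in insulin tumors and 55.6% lower than in vehicle tumors. X10 (59.9 ± 8.23) against insulin (76.2 ± 16.4) gave a log2 fold change of -0.33 ± 0.133 (SE), with an interval from -0.60 to -0.06, an unadjusted p of 0.0166 and an adjusted p of 0.295 (limma). In this comparison 11.3% of all genes had an unadjusted p under 0.05, 8.29% with a lower value in X10. With quantile normalization the fold change of Got2 was -0.30 ± 0.132 on the log2 scale (unadjusted p = 0.0302, limma). With the processed pseudogene share as a covariate it was -0.27 ± 0.138 (unadjusted p = 0.0531, limma). That share ran from 3.08% to 5.36% in X10 and from 3.81% to 6.75% in insulin tumors. Against vehicle (72.9 ± 15.7), X10 gave -0.26 ± 0.133 (SE) on the log2 scale (adjusted p = 0.4704). With quantile normalization this was -0.19 ± 0.132 (limma unadjusted p = 0.162). The log2 ratio of Got2 to Got1 was 0.79 ± 0.427 (SD, n = 50) as deposited and 1.15 with the longest coding transcripts.

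Got2 too has a processed copy in the table, Got2-ps1 (chr5:138364260-138365552, minus strand, GRCm38), identical to it at 99.1% of 1290 coding bases. The longest run without a difference had 315 bases, and 34.8% of 100-base windows held none. Coding bases 634 to 933 of Got2 (GENCODE M21), which hold most of that run, are shown beside the copy, with differing bases in capitals, because reads from inside the run match both.
Got2: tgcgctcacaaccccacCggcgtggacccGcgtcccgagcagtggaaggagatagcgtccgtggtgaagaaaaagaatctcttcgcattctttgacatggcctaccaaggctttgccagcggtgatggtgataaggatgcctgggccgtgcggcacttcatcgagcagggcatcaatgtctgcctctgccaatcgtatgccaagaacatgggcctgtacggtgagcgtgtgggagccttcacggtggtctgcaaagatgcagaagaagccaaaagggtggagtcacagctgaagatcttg
Got2-ps1: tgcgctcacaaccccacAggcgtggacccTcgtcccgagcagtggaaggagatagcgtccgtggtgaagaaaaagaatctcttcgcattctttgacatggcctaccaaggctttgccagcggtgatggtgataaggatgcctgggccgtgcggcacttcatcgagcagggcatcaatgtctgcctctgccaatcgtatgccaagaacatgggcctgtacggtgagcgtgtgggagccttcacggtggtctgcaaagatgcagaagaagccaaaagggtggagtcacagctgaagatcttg
Got2-ps1 had a mean RPKM of 12.1, held a median of 12.5% of the reads of both and was the gene most like Got2 over tumors (r = 0.762). Reads that the copies share make the values of Got2 uncertain, and how they divide was not tested.

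**Figure D3:**
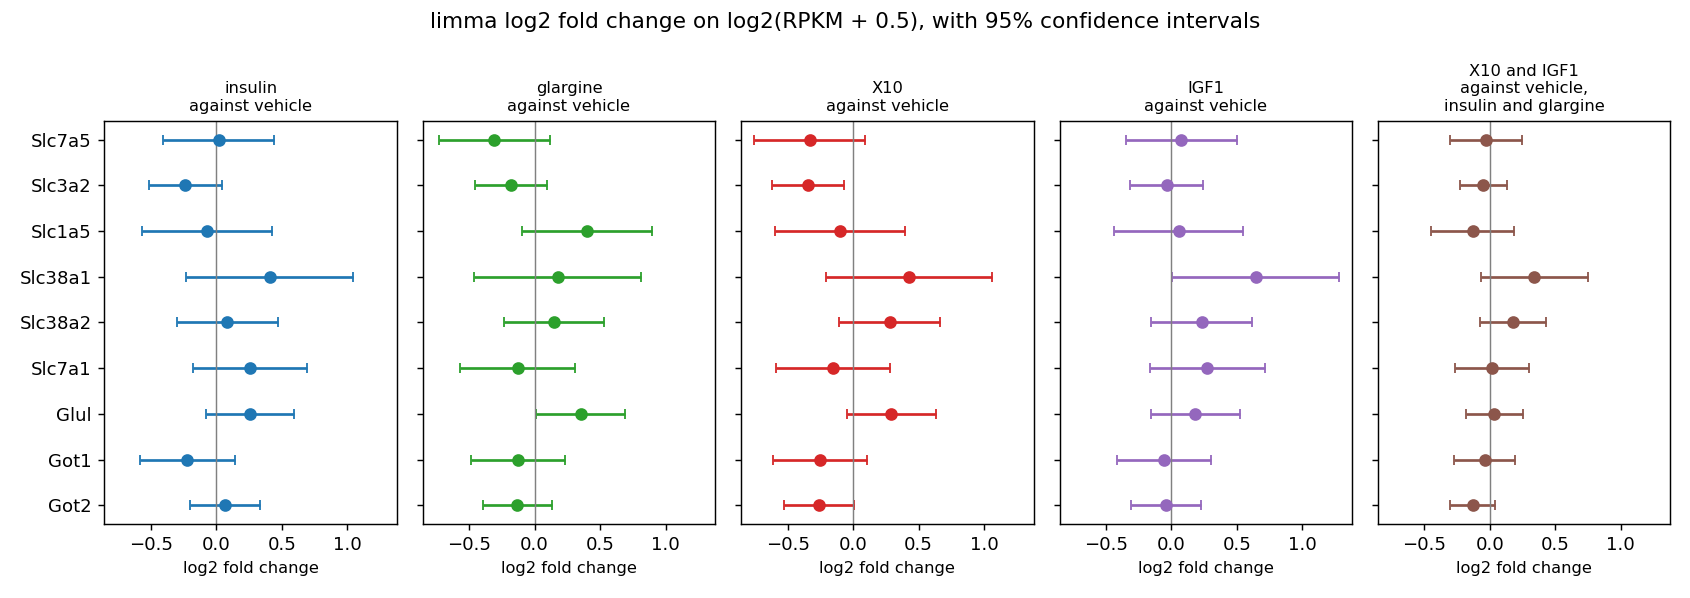
Log2 fold change on log2(RPKM + 0.5) (x axis) of each gene (y axis) for each treatment against vehicle and for X10 and IGF1 tumors against the other 30, as the limma estimate (point) with its 95% confidence interval (bar). The intervals that do not reach 0 are those of Slc3a2 in X10, Glul in glargine and Slc38a1 in IGF1 tumors, with adjusted p of 0.352, 0.789 and 0.558.

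The signs of the 9 fold changes were mixed. Against the same vehicle tumors, 6 of 9 were higher in insulin, 4 in glargine, 3 in X10 and 6 in IGF1 tumors. Their median log2 fold changes were 0.07, -0.13, -0.15 and 0.08, beside 0.03, 0.02, -0.03 and 0.02 over all tested genes. For X10 and IGF1 against the other 30 tumors the median was -0.03, beside -0.02 over all genes. Over these 5 comparisons the 95% intervals reached from -0.75 (Slc7a5, X10 against vehicle) to 1.28 (Slc38a1, IGF1 against vehicle).

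Of 25 tested other amino acid transporters, 23 other enzymes of glutamine and glutamate metabolism and 9 regulators of amino acid supply, 0 were called in each comparison and in the F-test (limma). At an unadjusted p under 0.05, the numbers in these 3 lists were 6, 1 and 5 in insulin against vehicle, where 11.1% of all genes had such a p. They were 3, 1 and 3 in glargine (all genes 6.23%), 3, 1 and 1 in X10 (11%) and 6, 1 and 0 in IGF1 tumors (8.84%), against the same vehicle tumors. In the other 4 comparisons and the F-test they were 0 to 7, 0 to 1 and 0 to 3, beside 10.5% of all genes for X10 and IGF1 against the other 30 tumors, 3.96%, 11.3% and 7.3% for glargine, X10 and IGF1 against insulin and 13.1% in the F-test. The lowest adjusted p was 0.150, for Cad, which starts pyrimidine synthesis, in X10 against insulin. Against the same vehicle tumors, 8 of 9 regulators were lower in insulin, 8 in glargine, 8 in X10 and 4 in IGF1 tumors. The medians of their log2 fold changes were -0.30, -0.25, -0.22 and 0.02 in that order, and the share of all tested genes that were lower was 45.5%, 45.9%, 55.6% and 46.6%. Regulators were higher in 8 of 9 cases for X10 and IGF1 against the other 30 tumors (median 0.16), in 8 for X10 against insulin (0.07), in 8 for IGF1 against insulin (0.25) and in 3 for glargine against insulin (-0.01). Of all tested genes, 56.4%, 61.4%, 52.6% and 51.7% were lower in these 4 comparisons, in that order.

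By deposited mean RPKM over 50 tumors, with the value rescaled to the longest coding transcript beside it, the highest other transporters were Slc38a10 (299, rescaled 116.04), Slc43a2 (74.7, rescaled 8.79) and Slc43a3 (63.1, rescaled 31.2). The highest enzymes were Glud1 (257, rescaled 53.03), which is glutamate dehydrogenase, and the malate dehydrogenases Mdh2 (222, rescaled 280.4) and Mdh1 (183, rescaled 53.6). The highest regulators were Atf4 (139, rescaled 139), a transcription factor of the amino acid response, Nupr1 (64.3, rescaled 64.3) and Myc (47.1, rescaled 80.7).

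Of the 36 pairs of the 9 genes over the 50 tumors (two-sided permutation tests with 100000 resamples, log2 scale), 2 had an adjusted p under 0.05, which is 5.56%. Their absolute r was at least 0.418, and 7.08% of all relations of these genes with tested genes reached it, from 1.24% for Slc7a5 to 15.6% for Slc38a2, so the count is no result about the pairs. Slc7a5 and Slc7a1 had r = 0.558 (permutation p = 3e-05, adjusted p = 0.00108) and rho = 0.548 (permutation p = 5e-05, adjusted p = 0.00180). For this pair r was 0.508 on values centred within groups (adjusted p = 0.0436) and 0.495 without the 2 tumors farthest from the median (adjusted p = 0.0124). By group, r was 0.8005 in glargine, 0.663 in insulin, 0.528 in IGF1, 0.223 in X10 and 0.113 in vehicle tumors, each over 10 tumors, and the differences were not tested.

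Slc1a5 and Got1 had r = 0.418 (permutation p = 0.00236, adjusted p = 0.0425) and rho = 0.372 (permutation p = 0.00824, adjusted p = 0.0989). For this pair r was 0.431 on values centred within groups (adjusted p = 0.0864) and 0.365 without the 2 tumors farthest from the median (adjusted p = 0.127), so it did not pass the threshold by rank, within groups or without those tumors. Slc7a5 and Got2 had r = 0.367 (permutation p = 0.00881, adjusted p = 0.0788) and rho = 0.435 (permutation p = 0.00178, adjusted p = 0.0320). For this pair r was 0.291 on values centred within groups (adjusted p = 0.256) and 0.4701 without the 2 tumors farthest from the median (adjusted p = 0.0124), so it passed by rank and without these tumors, but neither by r over all 50 tumors nor within groups. The partners of LAT1, Slc7a5 and Slc3a2, had r = 0.354 (permutation p = 0.0109, adjusted p = 0.0788) and rho = 0.267 (permutation p = 0.0617, adjusted p = 0.278), and r was 0.301 on values centred within groups (adjusted p = 0.256) and 0.238 without the 2 tumors farthest from the median, among them IGF1_158. The neighbours Slc38a1 and Slc38a2 had r = 0.286 (permutation p = 0.0437, adjusted p = 0.157) and rho = 0.186 (permutation p = 0.195, adjusted p = 0.529), and r was 0.251 on values centred within groups (adjusted p = 0.393) and 0.208 without the 2 tumors farthest from the median. Got1 and Got2 had r = 0.305 (permutation p = 0.0316, adjusted p = 0.130) and rho = 0.252 (permutation p = 0.0767, adjusted p = 0.305), and r was 0.299 on values centred within groups (adjusted p = 0.256) and 0.126 without the 2 tumors farthest from the median.

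**Figure D4:**
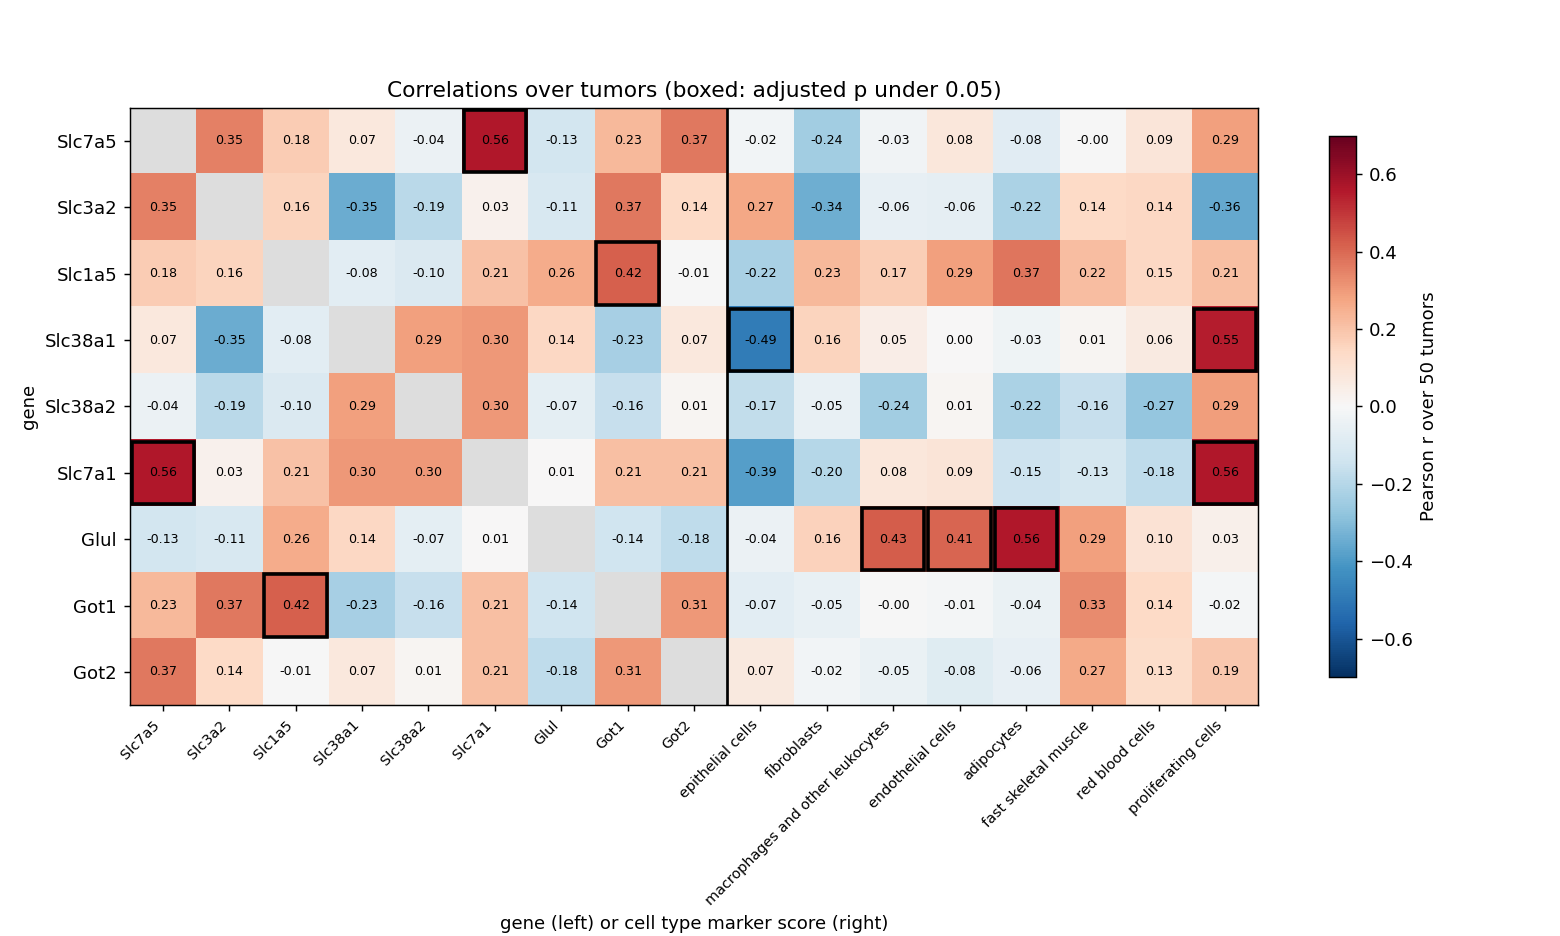
Pearson r over 50 tumors (colour and number) of each gene (y axis) with the other genes (x axis, left) and with the mean z-score of 8 lists of cell type markers (x axis, right), on log2(RPKM + 0.5). Boxes mark an adjusted p under 0.05, among them Slc7a5 with Slc7a1 (0.56), Slc7a1 with proliferating cells (0.56) and Glul with adipocytes (0.56).

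Of 72 relations with 8 lists of cell type markers, 6 had an adjusted p under 0.05, which is 8.33%. Their absolute r was at least 0.408, a size reached in 6.68% of the relations of all tested genes with the same lists, so the count is no result about the 9 genes. By list, that share was 16.5% for proliferating cells, 11.8% for leukocytes, 11.7% for epithelial cells, 4.56% for endothelial cells and 1.997% for adipocytes. Slc7a1 rose with the proliferation markers, Mki67 and Top2a among them: r = 0.562 (permutation p = 1e-05, adjusted p = 0.000720) and rho = 0.503 (permutation p = 0.000220, adjusted p = 0.00528), where 1e-05 is the smallest p the permutations can give, and r was 0.607 on values centred within groups (adjusted p = 0.00120) and 0.435 without the 2 tumors farthest from the median. Slc38a1 rose with them as well: r = 0.550 (permutation p = 7e-05, adjusted p = 0.00168) and rho = 0.507 (permutation p = 0.000190, adjusted p = 0.00528), and r was 0.575 on values centred within groups (adjusted p = 0.00120) and 0.542 without the 2 tumors farthest from the median. Slc38a1 was lower where epithelial markers were higher: r = -0.490 (permutation p = 0.000270, adjusted p = 0.00486) and rho = -0.394 (permutation p = 0.00472, adjusted p = 0.0425), but r was -0.439 on values centred within groups (adjusted p = 0.0805) and -0.380 without the 2 tumors farthest from the median (adjusted p = 0.111).

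Glul rose with the adipocyte markers: r = 0.563 (permutation p = 4e-05, adjusted p = 0.00144) and rho = 0.528 (permutation p = 1e-04, adjusted p = 0.00528), and r was 0.581 on values centred within groups (adjusted p = 0.00120) and 0.512 without the 2 tumors farthest from the median. By group, r with the adipocyte score was 0.760 in vehicle, 0.742 in glargine, 0.516 in insulin, 0.387 in X10 and 0.0669 in IGF1 tumors. Glul also moved with the leukocyte markers: r = 0.426 (permutation p = 0.00214, adjusted p = 0.0308) and rho = 0.406 (permutation p = 0.00386, adjusted p = 0.0397), but r was 0.406 on values centred within groups (adjusted p = 0.0715) and 0.398 without the 2 tumors farthest from the median (adjusted p = 0.0916). With the endothelial markers it had r = 0.408 (permutation p = 0.00357, adjusted p = 0.0428) and rho = 0.377 (permutation p = 0.00734, adjusted p = 0.0587), but r was 0.398 on values centred within groups (adjusted p = 0.0805) and 0.360 without the 2 tumors farthest from the median (adjusted p = 0.140). Which cells held the Glul RNA was not tested. For the other genes the marker relation of largest size missed the threshold. With proliferating cells r was -0.356 for Slc3a2, 0.293 for Slc38a2 and 0.289 for Slc7a5. Slc1a5 had 0.375 with adipocytes, and Got1 had 0.334 and Got2 0.266 with fast skeletal muscle. By rank, Slc1a5 with adipocytes (rho = 0.414) and Got1 with muscle (rho = 0.424) had an adjusted permutation p of 0.0396, and Slc7a1 with epithelial cells (rho = -0.411) had an adjusted permutation p of 0.0397.

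Relations of the 9 genes with the 57 tested genes of the 3 pathway lists were added after the data had been seen, and the pairs named here were chosen by their values. Of 513 relations, 85 had an adjusted p under 0.05, 73 positive and 12 negative, and 55 of them passed within treatment groups too. By rank correlation, 49 passed. Genes measured in the same tumor share its library and tissue make-up, so the share of listed genes with an absolute r of at least 0.367 is given beside that of all tested genes. It was 21.1% against 2.72% for Slc7a5, 19.3% against 7.25% for Slc1a5, 14.04% against 6.10% for Glul and 10.5% against 5.83% for Got1. It was 33.3% against 19.7% for Slc7a1 and 28.1% against 20.2% for Slc3a2. It was below the share of all genes for the other 3, with 12.3% against 14.5% for Slc38a1, 12.3% against 22.6% for Slc38a2 and 3.51% against 4.14% for Got2.

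Of the 9 regulators, 6 had a positive and 1 a negative relation to Slc3a2 with an adjusted p under 0.05. Its partner Slc7a5 had 0, a difference that was not tested. An absolute r of 0.367 was reached by 20.2% of all tested genes for Slc3a2 but by 2.72% for Slc7a5. At that share, 0 of 9 is no result about Slc7a5. With Atf4, Slc3a2 had r = 0.645 (permutation p = 1e-05, adjusted p = 0.000933), rho = 0.586 (permutation p = 2e-05), r = 0.601 within groups and r = 0.602 without the 2 farthest tumors. By group, r was 0.901 in vehicle, 0.763 in IGF1, 0.615 in glargine, 0.228 in insulin and 0.176 in X10 tumors. With Ddit3, a stress response factor downstream of Atf4, it had r = 0.609 (permutation p = 2e-05, adjusted p = 0.000933), rho = 0.599 (permutation p = 3e-05), r = 0.592 within groups and r = 0.635 without the 2 farthest tumors. The negative relation was with Eif2ak4, which encodes GCN2, a kinase that senses missing amino acids: r = -0.414 (permutation p = 0.00265, adjusted p = 0.0234), rho = -0.412 (permutation p = 0.00287), r = -0.333 within groups and r = -0.465 without the 2 farthest tumors.

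Of the 23 other enzymes of glutamine and glutamate metabolism, 7 had an adjusted p under 0.05 with Slc7a5 and 10 with Slc7a1, all positive. An absolute r of 0.367 was reached by 2.72% of all tested genes for Slc7a5 and by 19.7% for Slc7a1. Slc7a5 and Ctps, a CTP synthase gene, had r = 0.592 (permutation p = 1e-05, adjusted p = 0.000933), rho = 0.647 (permutation p = 1e-05), r = 0.574 within groups and r = 0.658 without the 2 farthest tumors. Slc7a5 and Psat1, of serine synthesis, had r = 0.571 (permutation p = 2e-05, adjusted p = 0.000933), rho = 0.549 (permutation p = 6e-05), r = 0.569 within groups and r = 0.493 without the 2 farthest tumors. Slc7a1 and Ppat, which starts purine synthesis, had r = 0.620 (permutation p = 1e-05, adjusted p = 0.000933), rho = 0.506 (permutation p = 0.000250), r = 0.658 within groups and r = 0.462 without the 2 farthest tumors. The next purine enzyme relations were those of Slc7a1 with Pfas, with r = 0.614 (permutation p = 1e-05, adjusted p = 0.000933), rho = 0.544 (permutation p = 0.000110), r = 0.627 within groups and r = 0.580 without the 2 farthest tumors, and of Slc38a1 with Gmps, with r = 0.614 (permutation p = 2e-05, adjusted p = 0.000933), rho = 0.594 (permutation p = 3e-05), r = 0.590 within groups and r = 0.586 without the 2 farthest tumors. Slc1a5 and the cytosolic malate dehydrogenase Mdh1 had r = 0.604 (permutation p = 1e-05, adjusted p = 0.000933), rho = 0.579 (permutation p = 1e-05), r = 0.560 within groups and r = 0.558 without the 2 farthest tumors.

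Among all tested genes, those most like each gene over the 50 tumors are given as a description. For Slc7a5 they were Cth (r = 0.612), a gene of cysteine synthesis, Ctps (0.592) and Psat1 (0.571), and Slc7a1 was in place 6. For Slc7a1 they were the RNA helicase gene Ddx21 (0.75004), the tRNA exporter gene Xpot (0.714) and the processed pseudogene Rbpsuh-rs3 (0.707), and Slc7a5 was in place 380. For Slc3a2 they were Cebpd (0.725), Zdhhc4 (0.722) and Gpaa1 (0.716), and for Slc1a5 Rdh13 (0.674), Clic5 (0.661) and Ggcx (0.660). For Slc38a1 they were Anp32e (0.673), Hdgfrp3 (0.666) and Tstd2 (0.661), and for Got1 Prdx3 (0.667), Nrg1 (0.659) and Akr1c14 (0.641). After its pseudogene, Glul was closest to Acer2 (0.667) and Npr1 (0.655).

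For Slc38a2 and Got2 most of the most alike genes lay on the same chromosome. The single most alike gene of Slc1a5 (Rdh13) and of Got1 (Prdx3) did so too. Slc38a2 was closest to Ccnt1 (r = 0.900), Scaf11 (0.828) and Arid2 (0.819) on chromosome 15, at distances of 1.84, 0.227 and 0.282 Mb. The 3 tumors with most Ccnt1, Untreated_187, X10_116 and IGF1_147, were also those with most Slc38a2. Got2, after its pseudogene, was closest to Kars (0.734) and Prmt7 (0.731) on chromosome 8, 16.1 and 10.3 Mb away. Of the 50 genes most like it, a number chosen after the data had been seen, 38 were on chromosome 8 for Got2, which holds 4.84% of tested genes, and 28 on chromosome 15 for Slc38a2, which holds 3.69%. Slc38a1, next to Slc38a2, had 0, and Slc7a5, also on chromosome 8, had 5. The remaining 5 genes had 10 (Slc7a1), 9 (Slc1a5), 7 (Got1), 6 (Slc3a2) and 4 (Glul) on their own chromosomes. These hold 5.89%, 6.91%, 3.05%, 3.05% and 5.70% of tested genes, in that order. The share among the 50 was thus above that of tested genes for each gene but Slc38a1. Shares for other tested genes were not computed.

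**Figure D5:**
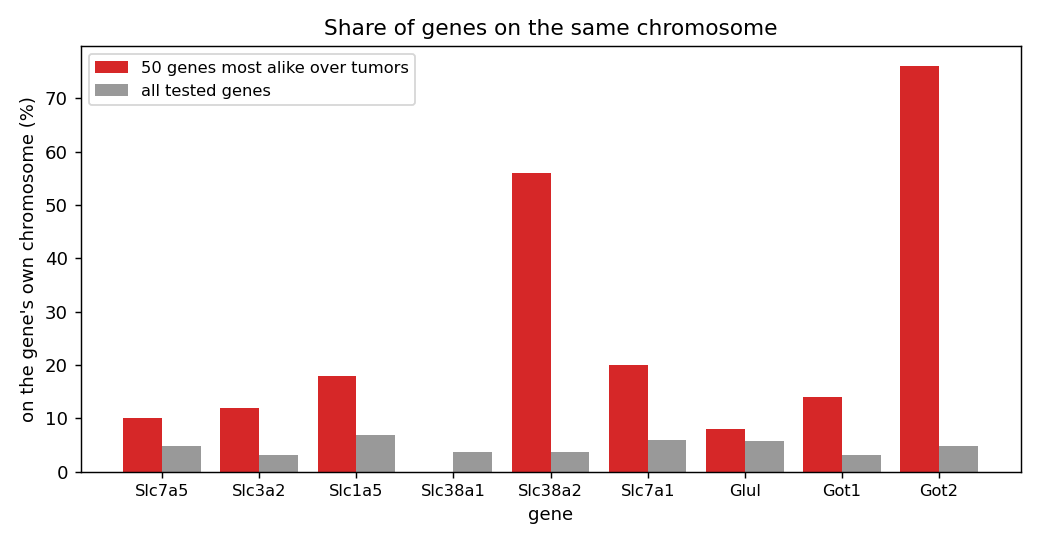
Share (y axis, %) of genes that lie on the same chromosome as each gene (x axis), among the 50 genes most like it over tumors (red) and among all tested genes (grey). The share is 76% for Got2 and 56% for Slc38a2, whereas Slc38a1 has 0%.

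Promoters from RefSeq (GRCm38.p6, the 250 bases before the start) were matched for 6 of the 9 genes, in 7 windows; Slc7a5, Slc1a5 and Slc38a1 were not matched. The letters TGATGNAA, a form of the amino acid response element that Atf4 binds, were present on either strand in 1 of the 6, Got1, and in 3.45% of all 32851 windows. The E-box CACGTG was present in 0 of the 6 and in 6.02% of all windows. A match is a description of the letters in the window.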

How the data were processed

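RNA of 50 mammary gland tumors, numbered separately in the labels, was sequenced by the authors on an Ion Proton after selection of Poly-A RNA. According to the submitters' processing notes and the methods of the study, reads were aligned to GRCm38 with TopHat2 2.0.10 and Bowtie2 and counted per gene with HTSeq 0.6.1, and the authors deposited RPKM values, which are reads divided by library size and gene length. DESeq2 1.2.10, named in those notes, was not run here, since the deposited RPKM are not counts. Values of a gene in the table are whole multiples of a step that fits reads scaled to 100 M per library. From these steps the gene length was recovered for 99.9% of the 16733 tested genes, and reads and library sizes with at least 96.1% of low values on a step in each tumor. No columns of the table belong to other samples, and none were identical.

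Genes whose RPKM averaged 0.5 or more were tested with limma 3.58.1 (R 4.3.3) on log2(RPKM + 0.5), with the 5 groups in 1 fit, an intensity trend and Benjamini-Hochberg adjustment over all tested genes. Fold changes are on that scale and understate those of low genes. The limma p-values set a difference between groups against the spread between tumors within the groups. Correlations used 100000 permutations in Python 3.11.15. Coordinates, transcripts and sequences came from GENCODE M21 (GRCm38), and alignments from Biopython 1.88. Genes described are the 9 members, listed genes called in a comparison, the 3 highest of each list, the 3 genes most like each member, and the marker relation of largest size for each member. Other relations were chosen after their values were seen. The members and lists were chosen with earlier results of these data known. Alternatives were other pseudocounts, filters, scalings, fits and covariates, voom on the recovered reads and each tumor left out. The tests were checked on simulated data.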

Additional observations from a re-analysis of the deposited data

Results flagged for a closer look

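In 9 of 45 sets of 10 tumors (9 genes in 5 groups) 1 tumor stood apart from the rest of its group by Dixon's criterion, in each case the highest. For a tumor at either end, chance alone gives about 1 in 20, or 2.25 sets, if values are normally distributed. The criterion was applied to RPKM. On log2(RPKM + 0.5), the scale of the tests, 1 of the 45 sets passed it, that of Got2 in glargine tumors, so the number of such sets depends on the scale. The IGF1 tumor titled IGF1_158 had a Slc7a5 RPKM of 306, with the next tumor of its group at 161.3. The IGF1 tumor titled IGF1_158 had a Slc1a5 RPKM of 119, with the next tumor of its group at 68.3. The glargine tumor titled glargine_62 had a Slc38a1 RPKM of 14.8, with the next tumor of its group at 7.92. The vehicle tumor titled Untreated_187 had a Slc38a2 RPKM of 119.8, with the next tumor of its group at 68.9. The insulin tumor titled insulin_14 had a Slc38a2 RPKM of 83.6, with the next tumor of its group at 62.9. The X10 tumor titled X10_107 had a Slc7a1 RPKM of 43.7, with the next tumor of its group at 32.1. The X10 tumor titled X10_105 had a Glul RPKM of 379, with the next tumor of its group at 271. The vehicle tumor titled Untreated_161 had a Got1 RPKM of 89.1, with the next tumor of its group at 55.4. The glargine tumor titled glargine_78 had a Got2 RPKM of 94.3, with the next tumor of its group at 69.4.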

How the results depend on the processing

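No member was called under any of the 12 alternative settings or with any tumor left out: the lowest adjusted p (limma) was 0.167 in a comparison (Got2, X10 against insulin, with these 2 groups alone in the fit) and 0.215 in the F-test. Of 855 alternative fold changes 27 changed sign, none with a main log2 fold change over 0.18 in size; the cause was not tested. With library size as a covariate, the log2 fold change was -0.15 for Slc7a5 in insulin against vehicle, -0.00236 for Slc7a5 in IGF1 against vehicle and 0.00699 for Got1 in X10 against insulin. With marker scores as covariates, the log2 fold change was -0.00897 for Slc38a2 in insulin against vehicle, 0.0731 for Slc3a2 in IGF1 against vehicle, -0.0949 for Slc1a5 in IGF1 against vehicle, 0.0171 for Got2 in IGF1 against vehicle, -0.0398 for Slc7a1 in X10 and IGF1 against the other tumors, -0.12 for Glul in glargine against insulin, 0.0437 for Slc1a5 in X10 against insulin, -0.0260 for Glul in X10 against insulin, 0.00517 for Got1 in X10 against insulin and -0.0364 for Slc7a1 in IGF1 against insulin. With processed pseudogene share as a covariate, the log2 fold change was 0.0293 for Slc3a2 in X10 and IGF1 against the other tumors, -0.0120 for Glul in X10 and IGF1 against the other tumors, 0.0441 for Got1 in X10 and IGF1 against the other tumors, -0.0367 for Slc3a2 in glargine against insulin, -0.00121 for Got1 in glargine against insulin, 0.00821 for Slc3a2 in X10 against insulin, 0.0160 for Slc1a5 in X10 against insulin, -0.0331 for Glul in X10 against insulin and 0.0878 for Got1 in X10 against insulin. With quantile normalization, the log2 fold change was 0.0233 for Slc1a5 in X10 against insulin and 0.00867 for Got1 in X10 against insulin. With upper quartile scaling, the log2 fold change was 0.0213 for Slc1a5 in X10 against insulin, 0.0138 for Got1 in X10 against insulin and -0.00690 for Slc7a1 in IGF1 against insulin. With each tumor left out in turn, the sign of these changed within the range given: -0.0611 to 0.0762 for Slc7a5 in insulin against vehicle, -0.17 to 0.0454 for Slc1a5 in insulin against vehicle, -0.0246 to 0.22 for Slc38a2 in insulin against vehicle, -0.00312 to 0.12 for Got2 in insulin against vehicle, -0.0102 to 0.32 for Slc38a1 in glargine against vehicle, -0.19 to 0.0190 for Slc1a5 in X10 against vehicle, -0.0732 to 0.18 for Slc7a5 in IGF1 against vehicle, -0.11 to 0.0206 for Slc3a2 in IGF1 against vehicle, -0.10 to 0.17 for Slc1a5 in IGF1 against vehicle, -0.15 to 0.0589 for Got1 in IGF1 against vehicle, -0.11 to 0.00397 for Got2 in IGF1 against vehicle, -0.10 to 0.0225 for Slc7a5 in X10 and IGF1 against the other tumors, -0.0267 to 0.12 for Slc7a1 in X10 and IGF1 against the other tumors, -0.0115 to 0.0659 for Glul in X10 and IGF1 against the other tumors, -0.0887 to 0.00377 for Got1 in X10 and IGF1 against the other tumors, -0.00230 to 0.10 for Slc3a2 in glargine against insulin, -0.12 to 0.0767 for Slc1a5 in X10 against insulin, -0.0869 to 0.12 for Slc38a1 in X10 against insulin, -0.0580 to 0.0881 for Glul in X10 against insulin, -0.12 to 0.0269 for Got1 in X10 against insulin, -0.0922 to 0.16 for Slc7a5 in IGF1 against insulin, -0.0327 to 0.24 for Slc1a5 in IGF1 against insulin and -0.0596 to 0.21 for Slc7a1 in IGF1 against insulin. The length of the longest coding transcript, an alternative chosen after seeing the data, turned the log2 ratio of Slc3a2 to Slc7a5 from -1.38 to 2.06, by construction. Of the pairs of members 1 passed on values centred within groups, against 2. Of the marker relations 3 passed when centred and 3 without the 2 farthest tumors, against 6. Of the technical relations 1 passed when centred (Slc7a5 with library size) and 2 without 2 tumors (Slc3a2 with the processed pseudogene share and Slc38a2 with the mitochondrial share), against 0. The unadjusted p of Glul (glargine against vehicle) was 0.05 or more without 12 of 50 single tumors and that of Slc38a1 (IGF1 against vehicle) without 11. On data simulated for X10 against vehicle, 75% of 200 changed genes were found at a log2 change of 1 and 95% at 2, among 16733 genes; smaller changes were not simulated. No paired analysis was possible because the groups share no tumor numbers.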
